A study of Mus musculus with 12 samples.

Results

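The NF-κB feedback and adhesion genes were 10 mouse genes, Nfkbia, Nfkbiz, Tnfaip3, Bcl3, Relb, Nfkb2, Icam1, Vcam1, Sele and Csf1, chosen by symbol from the 55401 genes of a whole-liver RNA sequencing count table. The 4 groups of 3 livers each were Cd11c-Cre/Fbxl5F/F mice (FBXL5ΔDC) at 6 h after acetaminophen (APAP), Fbxl5F/F mice (control) at 6 h after APAP, untreated FBXL5ΔDC mice (0 h) and untreated control mice (0 h). All groups carried Fbxl5 alleles flanked by loxP sites. In FBXL5ΔDC mice, Cre made from the Cd11c (Itgax) promoter deletes Fbxl5 mainly in dendritic cells, so hepatocytes and endothelium were not the intended targets. FBXL5 is the iron-sensing part of a ubiquitin ligase, and the series title names the question, whether iron overload in dendritic cells worsens injury by APAP, a drug that kills hepatocytes in overdose. The mice were males of 7 to 10 weeks. Injected mice were fasted for 16 h and refed, and received 300 or 500 mg/kg APAP intraperitoneally. The labels do not say which of these doses the sequenced mice received, or whether the 0 h mice were fasted. Changes from 0 h to 6 h, called changes with APAP below, therefore cannot be told apart from changes with fasting, refeeding or injection. Nothing in the labels says how animals were spread over litters or cages, so the p-values measure only the spread between these samples.

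NF-κB is a family of dimeric transcription factors held in the cytoplasm by IκB proteins. Signals from cytokine and Toll-like receptors lead to the breakdown of IκB, the dimers enter the nucleus, and among the genes they switch on are their own inhibitors, which end the response. In the liver, the pathway is active in macrophages, endothelium and hepatocytes. It controls adhesion molecules with which sinusoidal and venous endothelium catches leukocytes, and cytokines that feed macrophages.

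NF-κB dimers bind short DNA sequences called κB sites. Promoter windows of 300 bases, from 250 bases before to 50 bases after each start site (RefSeq, build GRCm38.p6), were at hand for 7 of the 10 genes, in 10 windows. Nfkbiz, Relb and Vcam1 were not in that table. The κB consensus was matched on either strand in windows of 5 genes, Nfkbia, Tnfaip3, Bcl3, Nfkb2 and Csf1, and 8.46% of all 32851 windows of the table held a match. The window with the most matches is shown for each of these 5 genes, 5′ to 3′ on the gene's own strand with the κB matches in capitals. They stand at chr12:55492598-55492897 (minus strand) for Nfkbia, chr10:19015361-19015660 (minus) for Tnfaip3, chr7:19822706-19823005 (minus) for Bcl3, chr19:46304487-46304786 (plus) for Nfkb2 and chr3:107760420-107760719 (minus) for Csf1.
Nfkbia: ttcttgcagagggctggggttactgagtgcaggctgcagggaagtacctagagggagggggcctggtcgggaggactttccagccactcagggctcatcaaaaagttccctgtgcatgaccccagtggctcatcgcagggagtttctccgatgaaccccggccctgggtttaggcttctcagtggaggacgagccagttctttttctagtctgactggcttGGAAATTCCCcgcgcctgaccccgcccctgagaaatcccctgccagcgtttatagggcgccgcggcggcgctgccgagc
Tnfaip3: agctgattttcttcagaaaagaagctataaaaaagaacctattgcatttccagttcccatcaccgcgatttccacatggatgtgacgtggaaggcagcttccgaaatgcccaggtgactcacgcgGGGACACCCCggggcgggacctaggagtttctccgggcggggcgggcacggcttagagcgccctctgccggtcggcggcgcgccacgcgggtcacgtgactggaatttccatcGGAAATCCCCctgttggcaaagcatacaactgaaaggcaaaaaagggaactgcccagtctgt
Bcl3: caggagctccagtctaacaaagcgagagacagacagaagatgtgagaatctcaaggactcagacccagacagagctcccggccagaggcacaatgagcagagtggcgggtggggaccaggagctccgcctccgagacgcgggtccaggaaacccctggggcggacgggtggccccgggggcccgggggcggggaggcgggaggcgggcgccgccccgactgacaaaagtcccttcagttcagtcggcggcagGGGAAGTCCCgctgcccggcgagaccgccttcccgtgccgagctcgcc
Nfkb2: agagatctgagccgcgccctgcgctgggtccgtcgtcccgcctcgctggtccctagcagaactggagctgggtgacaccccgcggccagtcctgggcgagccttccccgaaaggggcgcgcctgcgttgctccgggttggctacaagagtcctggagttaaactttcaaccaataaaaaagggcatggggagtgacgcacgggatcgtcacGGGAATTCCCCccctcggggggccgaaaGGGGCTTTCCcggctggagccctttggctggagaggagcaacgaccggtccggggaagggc
Csf1: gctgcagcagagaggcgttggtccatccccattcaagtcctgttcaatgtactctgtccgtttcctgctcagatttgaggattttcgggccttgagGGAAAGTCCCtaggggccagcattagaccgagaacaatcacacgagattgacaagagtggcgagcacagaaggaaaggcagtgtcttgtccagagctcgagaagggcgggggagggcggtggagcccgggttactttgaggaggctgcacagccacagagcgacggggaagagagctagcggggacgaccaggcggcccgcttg

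The Nfkbia match began 29 bases before the start site, and the Csf1 match 154 bases before it. The Tnfaip3 window held matches at 125 and at 12 bases before the start. In the Nfkb2 window shown, 3 matches began 39, 38 and 11 bases before the start, the first pair being the same run of bases read 1 base apart. The Bcl3 match lay 3 bases after the start. The windows of Icam1 and Sele held no match to these letters, which says nothing about whether NF-κB binds there. The AP-1 motif TGANTCA, found in 7.81% of all windows, was matched in windows of Tnfaip3, Nfkb2 and Sele. The TATA box TATAAA, found in 13.6% of all windows, was matched in windows of Sele, Icam1, Nfkbia and Tnfaip3. In Sele it began 49 bases before the start, and in Tnfaip3 225 bases before it. The matches in Icam1 and Nfkbia lay 14 and 20 bases after the start, the Nfkbia one on the opposite strand (TTTATA).

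**Figure D1:**
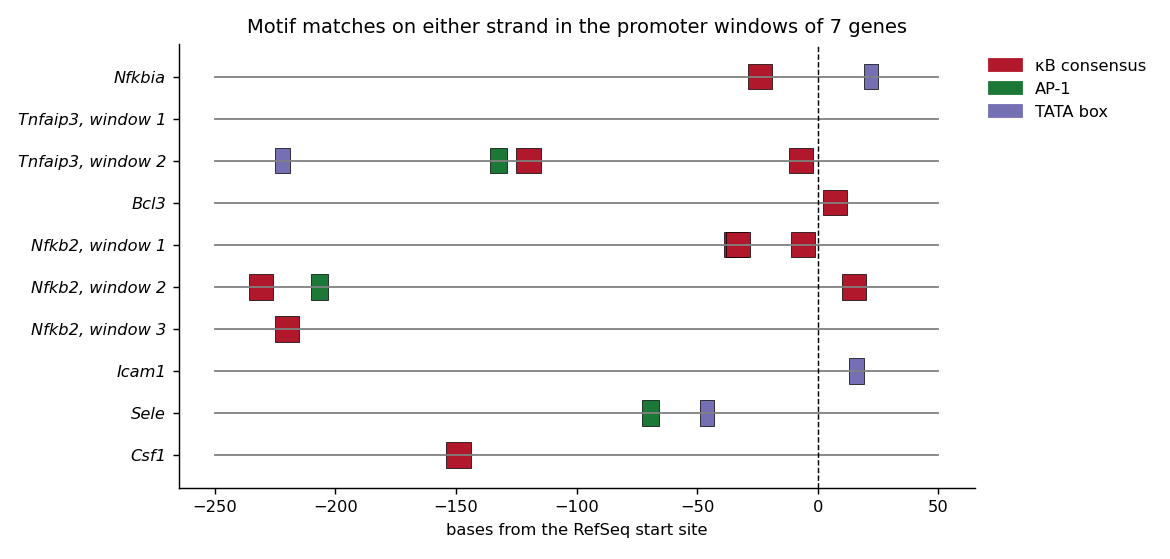
Positions of κB, AP-1 and TATA matches on either strand, in bases from the RefSeq start site (dashed line), with 1 row per promoter window of the 7 genes in the table. The nearest κB matches lie 29 bases before the start for Nfkbia, 12 for Tnfaip3 and 11 for Nfkb2 and 3 bases after it for Bcl3, whereas the Csf1 match lies 154 bases before it, and Tnfaip3 and Nfkb2 have more distant matches too. Of the Nfkb2 windows, 2 overlap, so the match 11 bases after the start in 1 and that 225 bases before it in the other are the same site.

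Library totals were 67173096 to 72512319 counts, and values are given as CPM, counts relative to a library size scaled by TMM. All 10 hepatocyte markers checked were detected in each group. Fbxl5 itself, in a tissue where the Cre-expressing cells are rare, was at 12.5 to 21.8 CPM in FBXL5ΔDC livers and at 13.3 to 19.2 CPM in control livers at 6 h, and at 10.3 to 21.4 CPM in FBXL5ΔDC livers and at 17.55 to 22.0 CPM in control livers at 0 h. It was not called in any comparison, so the genotypes are those of the labels. On the first principal component, which held 39.8% of the variance, the treated FBXL5ΔDC livers lay at −97.7, −107 and −104, treated control replicates 1 and 2 at 9.46 and 8.18, treated control replicate 3 at −86.8, and all untreated livers at 57.5 to 67.0. Treated control replicate 3 thus stood with the treated FBXL5ΔDC livers, and values without it are given where it changed a call or moved a called value strongly. Mitochondrially encoded genes took 8.94% to 9.43% of the counts in treated FBXL5ΔDC livers and 5.32% to 7.05% in the other libraries.

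Expressed per kilobase of exon, the genes of the set covered a wide range. In FBXL5ΔDC livers at 6 h, Bcl3 had the highest level (53.35 ± 3.18 CPM per kb, mean ± SD, n = 3 as throughout), Nfkbia came next (18.8 ± 1.92), and Sele was lowest (0.590 ± 0.117). Between these stood Nfkbiz, Vcam1, Icam1, Csf1, Nfkb2, Tnfaip3 and Relb in falling order, and the neighbours Nfkbiz and Vcam1, Vcam1 and Icam1, Nfkb2 and Tnfaip3, and Relb and Sele overlapped between libraries. In control livers at 6 h, Bcl3 (27.4 ± 18.5 CPM per kb) and Nfkbia (19.6 ± 3.17) overlapped. At 0 h the order began with Nfkbia (27.25 ± 1.21 CPM per kb in FBXL5ΔDC and 27.7 ± 3.27 in control livers), followed by Bcl3 (9.42 ± 0.837 and 9.62 ± 0.522) and Icam1 (2.21 ± 0.128 and 2.32 ± 0.614). Bcl3 thus led Nfkbia in all treated FBXL5ΔDC livers, while Nfkbia led Bcl3 in all untreated livers.

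More genes of the set were called with APAP in FBXL5ΔDC livers than in control livers. The log2 change was above 0 for 9 of 10 genes in each genotype. The unadjusted edgeR p was below 0.05 for 9 genes in FBXL5ΔDC and 8 in control livers, against 40.4% and 24.7% of all genes. For the difference between the responses, given below as an interaction, 0 of 9 genes were called. In FBXL5ΔDC livers 8 of 10 genes rose and 1 fell, at an adjusted p below 0.05 of edgeR's quasi-likelihood test over 17585 genes, where 15.0% of all genes rose and 15.1% fell. In control livers 3 of 10 rose and 1 fell, against 6.36% and 4.20% of all genes. With upper quartile scaling in place of TMM, calls over all genes in control livers split into 911 higher and 938 lower, against 1118 higher and 739 lower, and the count of genes called within the set stayed at 4. All 4 genes called in control livers, Nfkbiz, Bcl3 and Csf1 higher and Nfkbia lower, were among the 9 called in FBXL5ΔDC livers with the same direction, which is 44.4% of that list. The median log2 change over the set was 2.01 in FBXL5ΔDC livers and 0.92 in control livers, against 0.02 and 0.03 over all genes. Every treated library lay above every untreated one for 8 genes in FBXL5ΔDC livers and for 5 in control livers, compared with 24.2% and 15.3% of all genes. Nfkbia was the 1 gene with every treated library below every untreated one in each genotype, as were 24.5% and 13.4% of all genes. Since whole tissue was sequenced, a change in the number of cells of a type and a change in RNA per cell cannot be told apart.

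**Figure D2:**
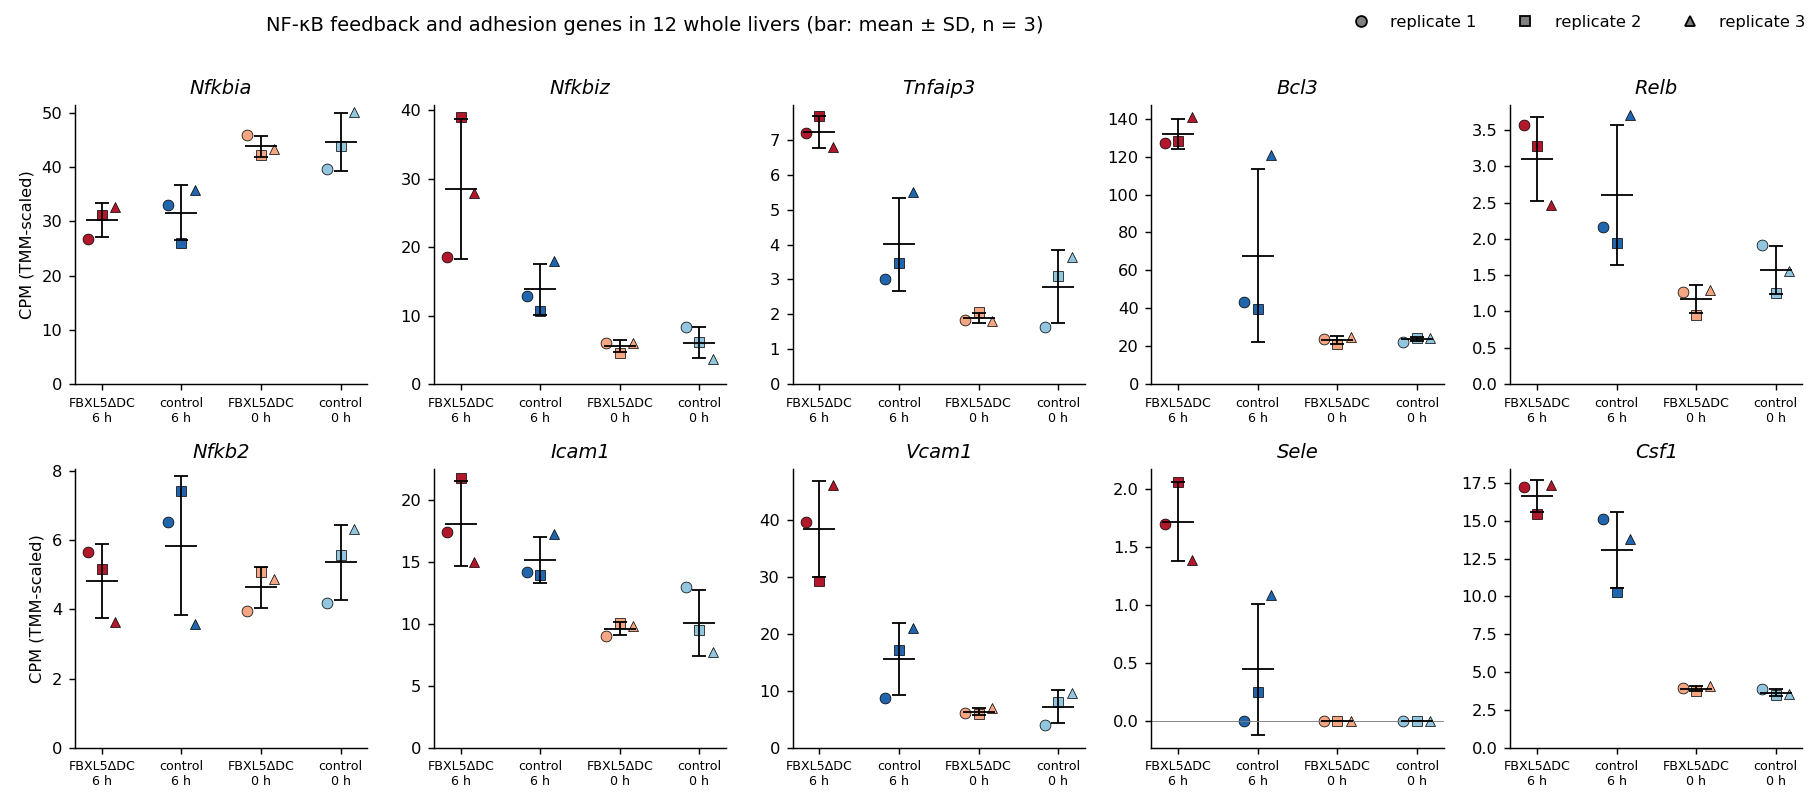
TMM-scaled CPM of each of the 10 genes in every liver (points, 3 replicates per group, marker shape by replicate) with the group mean ± SD. Bcl3 in treated control livers splits into 43.2 and 39.7 CPM in replicates 1 and 2 and 120.6 CPM in replicate 3, and Sele is at 0 in all 6 untreated livers.

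Among the inhibitor genes of the set, Nfkbia was the only 1 called lower with APAP, while the list of further inhibitors below also held 1 such gene in FBXL5ΔDC livers. Nfkbia encodes IκBα, the main cytoplasmic inhibitor of NF-κB (ENSMUSG00000021025.8, chromosome 12 from 55489410 to 55492647, minus strand, where positions of genes are GRCm38, GENCODE vM21). Nfkbia was at 26.8, 31.3 and 32.7 CPM in FBXL5ΔDC livers at 6 h, against 46.0, 42.3 and 43.3 CPM in FBXL5ΔDC livers at 0 h. Control livers had 33.1, 25.95 and 35.8 CPM at 6 h, against 39.75, 44.0 and 50.2 CPM at 0 h. All treated livers lay below all untreated ones, and the treated genotypes overlapped. The log2 change with APAP was −0.54 (SE 0.14, edgeR adjusted p = 0.0133) in FBXL5ΔDC livers and −0.50 (SE 0.14, edgeR adjusted p = 0.0439) in control livers. The FBXL5ΔDC minus control difference at 6 h was −0.06 (95% interval −0.37 to 0.25). The fall in FBXL5ΔDC livers lost its call without treated FBXL5ΔDC replicate 1 (adjusted p = 0.0595) or untreated FBXL5ΔDC replicate 1 (adjusted p = 0.0503). The fall in control livers kept its call without treated FBXL5ΔDC replicate 3 or treated control replicate 3, and lost it without any 1 of the other 10 libraries, with adjusted p from 0.0526 to 0.163.

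Of the nuclear IκB genes, Nfkbiz and Bcl3 rose with APAP, and Nfkbid was not called (log2 0.87 in FBXL5ΔDC and 1.81 in control livers, edgeR adjusted p = 0.702 and 0.515). The second value is uncertain. Nfkbid averaged 0.412 CPM in treated and 0.116 CPM in untreated control livers, the latter under a floor of 12 counts per library (0.161 CPM). Nfkbiz encodes IκBζ, a nuclear protein that joins NF-κB on the promoters of secondary response genes (ENSMUSG00000035356.17, chromosome 16 from 55811375 to 55838899, minus strand). Its level was 18.6, 39.0 and 27.8 CPM in FBXL5ΔDC livers and 12.9, 10.6 and 17.95 CPM in control livers at 6 h. At 0 h it was 6.00, 4.57 and 6.03 CPM in FBXL5ΔDC livers and 8.29, 6.21 and 3.72 CPM in control livers. Treated libraries exceeded untreated ones in both genotypes, and the 3 treated FBXL5ΔDC livers all exceeded the treated control livers, with a small gap between 18.6 and 17.95 CPM. The APAP change was 2.36 on the log2 scale (SE 0.33, 5.14-fold, edgeR adjusted p = 3.94e-04) in FBXL5ΔDC livers and 1.19 (SE 0.32, 2.27-fold, edgeR adjusted p = 0.0339) in control livers. The call in control livers was lost without treated control replicate 1 or 3, untreated FBXL5ΔDC replicate 3, or untreated control replicate 2 or 3 (adjusted p 0.0503 to 0.116).

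Bcl3, a nuclear IκB protein that binds NF-κB dimers lacking a transactivation domain, was split within the treated control livers (ENSMUSG00000053175.17, chromosome 7 from 19808462 to 19822770, minus strand). Its level was 127, 128 and 141 CPM in FBXL5ΔDC livers and 43.2, 39.7 and 120.6 CPM in control livers at 6 h. At 0 h Bcl3 was at 23.8, 21.0 and 25.1 CPM in FBXL5ΔDC livers and at 22.3, 24.5 and 24.6 CPM in control livers. Treated control replicate 3 stood just below the treated FBXL5ΔDC livers, and replicates 1 and 2 stood closer to the untreated livers. The rise was 2.50 (SE 0.35, 5.66-fold, edgeR adjusted p = 5.36e-04) in FBXL5ΔDC livers and 1.51 (SE 0.34, 2.85-fold, edgeR adjusted p = 0.01735) in control livers. The rise in control livers lost its call without any 1 of the 3 untreated control livers (adjusted p 0.0643 to 0.0677). Without treated control replicate 3 it was 0.80 and stayed called (edgeR adjusted p = 5.28e-04). Counts on the opposite-strand gene Gm16175, which shares 161 exonic bases with Bcl3, were 0 to 15 per library, against 1431 to 9468 for Bcl3.

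Tnfaip3 rose in FBXL5ΔDC livers. It encodes a ubiquitin-editing enzyme that shuts off signalling from TNF and Toll-like receptors (ENSMUSG00000019850.11, chromosome 10 from 19000910 to 19015657, minus strand). Tnfaip3 was at 7.20, 7.69 and 6.795 CPM in FBXL5ΔDC livers and at 3.01, 3.49 and 5.52 CPM in control livers at 6 h. Untreated FBXL5ΔDC livers had 1.83, 2.07 and 1.82 CPM, and untreated control livers 1.63, 3.11 and 3.65 CPM. Treated FBXL5ΔDC livers lay above all other livers, while treated and untreated control livers overlapped. The APAP change was 1.92 (SE 0.32, 3.79-fold, edgeR adjusted p = 0.00100) in FBXL5ΔDC livers and 0.52 (SE 0.31, edgeR adjusted p = 0.341) in control livers.

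The genes of the alternative NF-κB pathway, Relb and Nfkb2, did not move together. Relb encodes the subunit RelB, and Nfkb2 a precursor protein that holds RelB in the cytoplasm until it is cut to become RelB's partner. Relb (ENSMUSG00000002983.17, chromosome 7 from 19606217 to 19629438, minus strand) was at 3.56, 3.28 and 2.46 CPM in FBXL5ΔDC livers and at 2.17, 1.94 and 3.70 CPM in control livers at 6 h. At 0 h it was at 1.27, 0.955 and 1.30 CPM in FBXL5ΔDC livers and at 1.91, 1.26 and 1.56 CPM in control livers. Treated livers lay above untreated livers within each genotype, narrowly in control livers, and the treated genotypes overlapped. The change was 1.40 (SE 0.33, 2.64-fold, edgeR adjusted p = 0.00682) in FBXL5ΔDC livers and 0.72 (SE 0.32, edgeR adjusted p = 0.186) in control livers. Nfkb2 (ENSMUSG00000025225.15, chromosome 19 from 46304320 to 46312385, plus strand) was at 5.67, 5.17 and 3.62 CPM in FBXL5ΔDC livers and at 6.53, 7.42 and 3.58 CPM in control livers at 6 h. Its untreated levels were 3.96, 5.07 and 4.89 CPM in FBXL5ΔDC livers and 4.18, 5.57 and 6.325 CPM in control livers. All 4 groups overlapped for Nfkb2, and the changes of 0.05 (SE 0.29, edgeR adjusted p = 0.913) and 0.13 (SE 0.29, edgeR adjusted p = 0.857) were not called. Nfkb2 is uncertain, because it shares 299 exonic bases with Psd (19 to 111 counts per library) and 531 with AC114539.1 (12 to 132 counts) on the other strand, its own counts were 238 to 600, and the strand setting of the counting is not given in the sources used here.

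Among the adhesion genes, Vcam1 had the largest change of the 3 in FBXL5ΔDC livers among those with counts at 0 h, and Sele had counts in treated livers only. Vcam1 encodes an endothelial ligand of leukocyte integrins (ENSMUSG00000027962.14, chromosome 3 from 116109949 to 116129688, minus strand). It was at 39.65, 29.25 and 46.0 CPM in FBXL5ΔDC livers and at 8.70, 17.05 and 21.0 CPM in control livers at 6 h. Untreated levels were 6.09, 5.89 and 7.05 CPM in FBXL5ΔDC livers and 4.06, 8.01 and 9.56 CPM in control livers. The treated FBXL5ΔDC livers lay above every other liver, and treated control replicate 1 fell inside the range of the untreated control livers. The APAP change was 2.59 (SE 0.35, 6.04-fold, edgeR adjusted p = 3.74e-04) in FBXL5ΔDC livers and 1.11 (SE 0.34, 2.16-fold, edgeR adjusted p = 0.055) in control livers. The change in control livers passed the threshold without treated control replicate 1 (log2 1.40, adjusted p = 0.0132).

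Icam1, which encodes an endothelial ligand of the integrins that hold neutrophils and monocytes, changed less (ENSMUSG00000037405.8, chromosome 9 from 21015985 to 21028817, plus strand). It was at 17.4, 21.8 and 15.05 CPM in FBXL5ΔDC livers and at 14.2, 13.98 and 17.3 CPM in control livers at 6 h. At 0 h the values were 9.002, 10.05 and 9.86 CPM in FBXL5ΔDC livers and 13.0, 9.50 and 7.78 CPM in control livers. Treated livers lay above untreated ones in each genotype, and the treated genotypes overlapped. Icam1 rose by 0.91 on the log2 scale (SE 0.20, 1.88-fold, edgeR adjusted p = 0.00524) in FBXL5ΔDC livers, and the change in control livers was 0.59 (SE 0.20, edgeR adjusted p = 0.0851). Without untreated control replicate 1, the change in control livers was 0.81 and passed the threshold (adjusted p = 0.0389).

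Sele encodes E-selectin, which activated endothelium makes to slow rolling leukocytes (ENSMUSG00000026582.6, chromosome 1 from 164048234 to 164057677, plus strand). Its counts were 111, 126 and 93 in FBXL5ΔDC livers and 0, 20 and 72 in control livers at 6 h, and 0 in all 6 untreated livers. In CPM, that was 1.70, 2.07 and 1.39 in treated FBXL5ΔDC livers and 0, 0.247 and 1.08 in treated control livers. Treated FBXL5ΔDC livers lay above all treated control livers, of which replicate 1 had no counts, like the untreated livers. Set against a floor of 12 counts per library, the treated mean was at least 9.80-fold higher than at 0 h in FBXL5ΔDC livers and at least 2.75-fold higher in control livers. Without treated control replicate 3, the mean of the other treated control livers was 0.124 CPM, under the floor of 0.161 CPM, so that the data then give no bound. The edgeR adjusted p was 0.00966 in FBXL5ΔDC livers and 0.0507 in control livers, and the second was 0.00629 without treated control replicate 1 and 0.0751 without replicate 3.

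Most endothelial markers rose with APAP in FBXL5ΔDC livers, beside the adhesion genes. The 12 endothelial markers (among them Pecam1, Cdh5, Kdr, Stab1 and Stab2), all detected in every group, summed to 484 to 602 CPM in FBXL5ΔDC livers and to 231 to 397 CPM in control livers at 6 h. At 0 h the sums were 225 to 290.5 CPM in FBXL5ΔDC livers and 199.6 to 277 CPM in control livers. With APAP, 9 of 12 markers rose in FBXL5ΔDC livers, where the mean sum was 2.06 times that at 0 h, and 0 of 12 in control livers, where it was 1.23 times. The 3 not called in FBXL5ΔDC livers were Kdr (log2 0.16), Egfl7 (0.09) and Ptprb (1.18), with edgeR adjusted p of 0.551, 0.783 and 0.0546. Per 100 CPM of these markers, Vcam1 averaged 7.28 ± 1.13 in FBXL5ΔDC and 5.39 ± 1.95 CPM in control livers at 6 h, against 2.52 ± 0.382 and 3.22 ± 1.67 CPM at 0 h. The same ratio for Icam1 was 3.53 ± 0.999 in FBXL5ΔDC and 5.375 ± 0.898 in control livers at 6 h, against 3.85 ± 0.694 and 4.21 ± 0.425 at 0 h. For Sele it was 0.336 ± 0.0986 in FBXL5ΔDC and 0.127 ± 0.1375 in control livers at 6 h. Per endothelial marker, then, treated FBXL5ΔDC livers were higher than untreated ones for Vcam1 and Sele, and overlapped with them for Icam1. The treated genotypes overlapped on this scale for each of these genes. Vcam1 was at 8.19, 6.02 and 7.64 in treated FBXL5ΔDC and at 3.49, 7.39 and 5.30 in treated control livers. The part of endothelial RNA in these results was not tested.

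**Figure D3:**
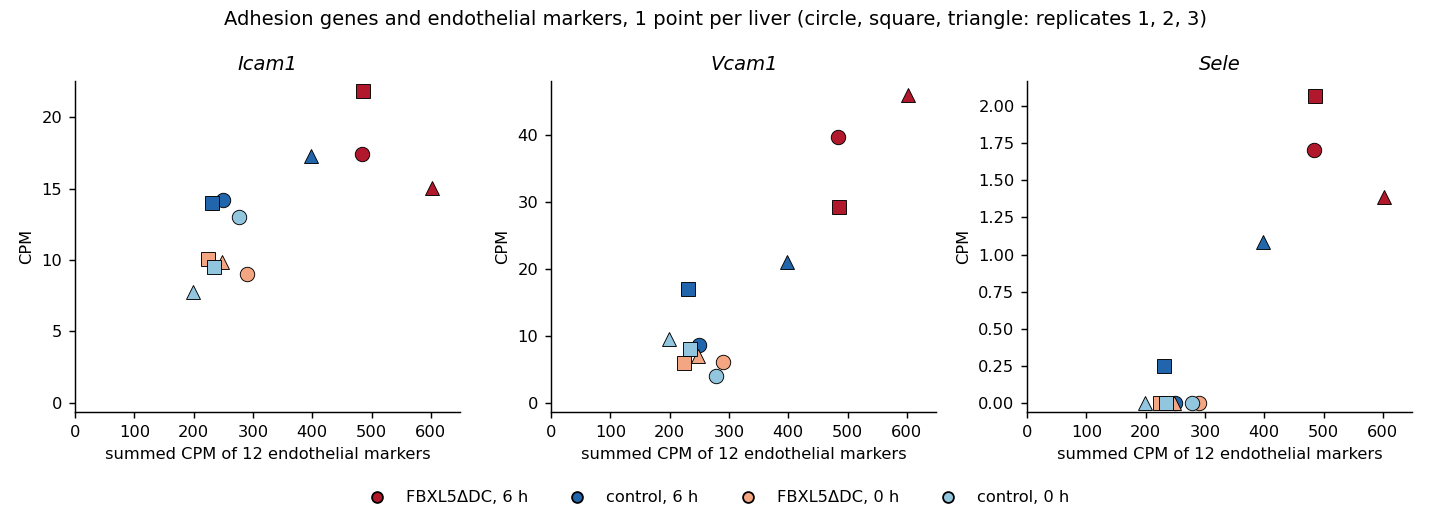
CPM of Icam1, Vcam1 and Sele (vertical axes) against the summed CPM of 12 endothelial markers (horizontal axes), with 1 point per liver, colour by group and shape by replicate. The 3 treated FBXL5ΔDC livers lie at marker sums of 484 to 602 CPM, to the right of all other livers, which reach at most 397 CPM.

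Csf1 rose in both genotypes with little spread between libraries. It encodes M-CSF, the growth factor of macrophages and Kupffer cells (ENSMUSG00000014599.10, chromosome 3 from 107741048 to 107760469, minus strand). Csf1 was at 17.2, 15.4 and 17.3 CPM in FBXL5ΔDC livers and at 15.1, 10.3 and 13.8 CPM in control livers at 6 h. Untreated livers had 3.915, 3.73 and 4.08 CPM in FBXL5ΔDC mice and 3.899, 3.47 and 3.52 CPM in control mice. Every treated liver, including treated control replicates 1 and 2, stood far above every untreated one, and the treated genotypes were separated only by the small gap between 15.4 and 15.1 CPM. The rise was 2.09 (SE 0.18, 4.26-fold, edgeR adjusted p = 2.22e-05) in FBXL5ΔDC livers and 1.85 (SE 0.18, 3.60-fold, edgeR adjusted p = 1.28e-04) in control livers. It was called in both genotypes whichever of the 12 libraries was left out, with log2 changes of 2.06 to 2.15 in FBXL5ΔDC livers and 1.73 to 1.99 in control livers.

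**Figure D4:**
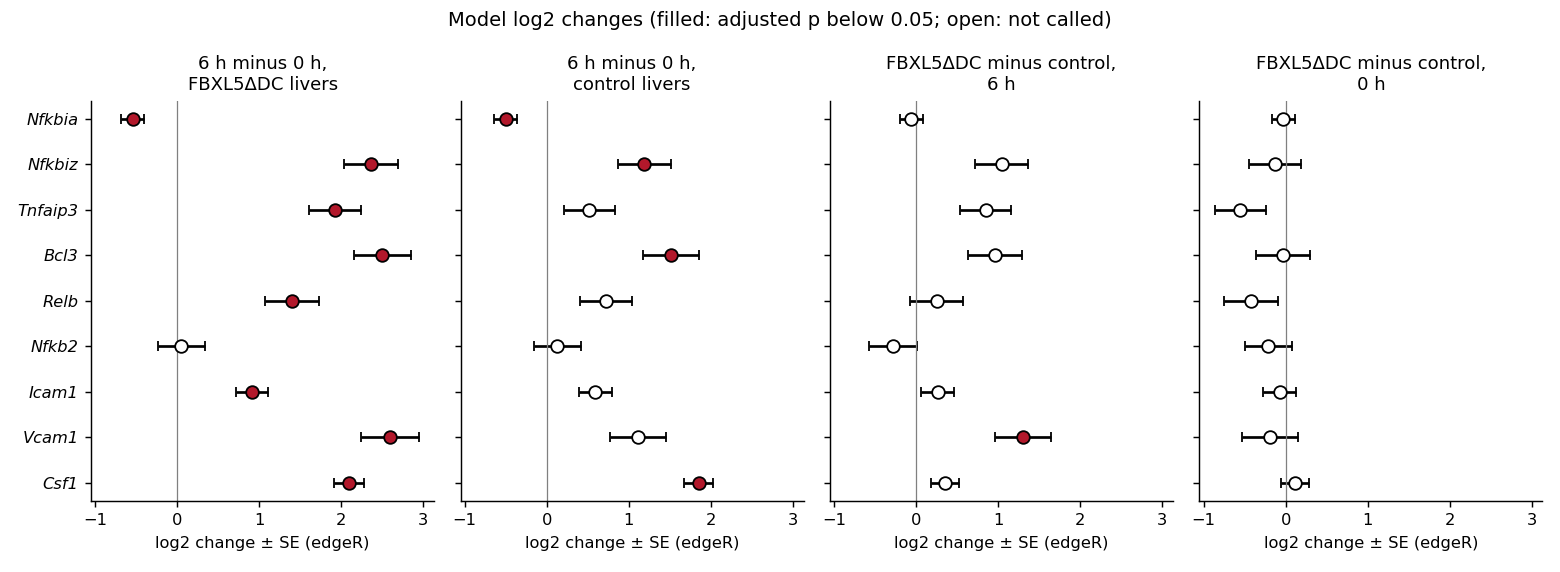
Model log2 changes ± SE for APAP in FBXL5ΔDC livers, APAP in control livers, and FBXL5ΔDC minus control at 6 h and at 0 h. There is 1 row per gene of the set except Sele, which is left out (filled, edgeR adjusted p below 0.05, and open, not called). Csf1 has close values for APAP in both genotypes (2.09 and 1.85), whereas Tnfaip3 stands at 1.92 in FBXL5ΔDC livers and 0.52 in control livers.

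At 6 h after APAP, Vcam1 was the 1 gene of the 10 called between genotypes, where 1.35% of all genes were called higher and 4.51% lower in FBXL5ΔDC livers. It averaged 38.3 ± 8.45 CPM in FBXL5ΔDC and 15.6 ± 6.30 CPM in control livers, a log2 difference of 1.30 (SE 0.34, 2.46-fold, edgeR adjusted p = 0.0426). Taken per endothelial marker, as above, Vcam1 overlapped between the treated genotypes. All 3 FBXL5ΔDC livers were above all 3 control livers for 6 of the 10 genes, Nfkbiz, Tnfaip3, Bcl3, Vcam1, Sele and Csf1, a pattern that 9.74% of all genes showed. Differences not called were 1.04 (SE 0.32, edgeR adjusted p = 0.0715) for Nfkbiz, 0.96 (SE 0.33, edgeR adjusted p = 0.113) for Bcl3 and 0.85 (SE 0.31, edgeR adjusted p = 0.121) for Tnfaip3. For Sele the difference was 1.96 (95% interval −0.92 to 4.83), and 1.37 to 3.77 with 1 library left out, the highest without treated control replicate 3 (edgeR adjusted p = 0.0705). The difference was 0.35 for Csf1 (−0.02 to 0.72), 0.26 for Icam1 (−0.18 to 0.69), 0.25 for Relb (−0.44 to 0.95) and −0.28 for Nfkb2 (−0.90 to 0.35). The median over the set was 0.60, against −0.01 over all genes.

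Single libraries decided these genotype calls. Without treated control replicate 3, 4 genes were called higher in FBXL5ΔDC livers, Vcam1, Nfkbiz (log2 1.27, edgeR adjusted p = 0.0178), Tnfaip3 (1.15, edgeR adjusted p = 0.0157) and Bcl3 (1.67, edgeR adjusted p = 9.03e-07). Over all 18464 genes tested in that fit, 1873 (10.1%) were then called higher and 2376 (12.9%) lower, against 238 and 793 with all 12 libraries. Vcam1 was also called without untreated control replicate 1 or 3, and lost its call without any 1 of the other 9 libraries, where its log2 difference was 1.01 to 1.47 and its adjusted p 0.0639 to 0.1325. It was 0.161 when only the treated livers were fitted. Of the endothelial markers, Stab1 (log2 0.98, edgeR adjusted p = 0.0203), Stab2 (1.02, edgeR adjusted p = 0.0147) and Eng (0.82, edgeR adjusted p = 0.0338) were also called higher at 6 h in FBXL5ΔDC livers, 3 of 12, and the marker sum was 1.79 times that of control livers. These calls were also lost when some single libraries were left out, 3 of the 12 for Stab1, 3 for Stab2 and 7 for Eng. They were lost as well when only the treated livers were fitted, where edgeR called 0 genes higher over all genes.

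Before treatment the genotypes could not be told apart in these genes. None of the 9 genes with counts at 0 h was called in edgeR, and 0.00% of all genes were, with 465 genes at an unadjusted p below 0.05, none of them in the set. DESeq2 called 9 genes higher and 7 lower, and none of the set. Log2 differences ran from −0.55 (Tnfaip3) to 0.11 (Csf1), all with an edgeR adjusted p of 1, and all groups overlapped. Over all genes, 5.94% had every FBXL5ΔDC liver above and 5.80% below every control liver, shares too small to set these 9 genes apart. Of the 9 differences, 1 was above 0. The 95% interval of the Csf1 difference reached 0.48 and that of the Bcl3 difference reached 0.70. On the lower side, the interval was −1.23 to 0.12 for Tnfaip3 and −1.13 to 0.28 for Relb.

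Whether the APAP response itself differed by genotype was tested as an interaction, and 0 of 9 genes were called in edgeR, with 0.290% of all genes called (6 higher and 45 lower in FBXL5ΔDC livers). At an unadjusted p below 0.05 there were 3 genes of the set, Nfkbiz, Tnfaip3 and Vcam1, and 2543 over all genes. The interaction was 1.48 (SE 0.47, edgeR adjusted p = 0.18) for Vcam1, 1.41 (SE 0.44, edgeR adjusted p = 0.170) for Tnfaip3, 1.18 (SE 0.45, edgeR adjusted p = 0.258) for Nfkbiz and 0.99 (SE 0.47, edgeR adjusted p = 0.365) for Bcl3. Values for Relb (0.68), Icam1 (0.32), Csf1 (0.24), Nfkbia (−0.04) and Nfkb2 (−0.07) were smaller, with 95% intervals that all spanned 0. Sele, at 0 in all untreated livers, was not given an interaction. DESeq2 called Tnfaip3 alone (1.43, adjusted p = 0.0459). Without treated control replicate 3, edgeR called Tnfaip3 (1.71, adjusted p = 0.01445), Bcl3 (1.70, adjusted p = 1.53e-05) and Vcam1 (1.76, adjusted p = 0.0365), while 5.97% of all genes were called higher and 7.74% lower (1103 and 1430 genes).

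Upstream of these genes, few ligand genes and several receptor genes were called. Counts in the pathway lists stand against 15.0% of all genes higher and 15.1% lower with APAP in FBXL5ΔDC livers, and 6.36% and 4.20% in control livers. Of 9 ligand genes tested in FBXL5ΔDC livers, 1 rose and 1 fell with APAP, Il33, an alarmin stored in nuclei (log2 2.84, SE 0.84, edgeR adjusted p = 0.0230), and Il18, an inflammasome-processed cytokine (−1.13, SE 0.38, edgeR adjusted p = 0.0410). In control livers 1 of 9 rose, Il1a (1.08, SE 0.29, edgeR adjusted p = 0.0320), another alarmin, which lost its call without treated control replicate 3 (edgeR adjusted p = 0.0744). Of 12 receptor genes, 5 rose and 0 fell in FBXL5ΔDC livers and 2 rose in control livers. The median log2 change of the ligands was 0.56 in FBXL5ΔDC and 0.89 in control livers, and that of the receptors 0.92 and 0.96 (0.74 in control livers with 1 gene set at its floor), against 0.02 and 0.03 over all genes. Tnfrsf12a, the receptor of the cytokine TWEAK, averaged 289 ± 49.9 CPM in FBXL5ΔDC livers at 6 h, against 8.92 ± 0.0636 CPM at 0 h (log2 5.02, edgeR adjusted p = 0.00104), and it rose by 4.01 in control livers (edgeR adjusted p = 0.00751). Treated control livers had 76.35, 45.8 and 390 CPM of Tnfrsf12a, and without replicate 3 the rise was 2.52 (edgeR adjusted p = 1.48e-05). The interleukin 1 receptor Il1r1 rose in FBXL5ΔDC livers (3.23, edgeR adjusted p = 0.00385), as did Tlr3, a sensor of double-stranded RNA (1.25, edgeR adjusted p = 0.0202). The TNF receptor Tnfrsf1a rose in both, by 1.61 in FBXL5ΔDC and 1.19 in control livers (edgeR adjusted p = 0.00154 and 0.0198), or by 0.63 in control livers without treated control replicate 3 (edgeR adjusted p = 0.00430). The other TNF receptor, Tnfrsf1b, was higher in FBXL5ΔDC than in control livers at 6 h, at 80.4 ± 6.03 and 43.4 ± 12.4 CPM (log2 0.89, edgeR adjusted p = 0.0288), and was the only receptor called between treated genotypes.

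Of 22 adaptors and kinases, 5 rose and 2 fell in FBXL5ΔDC livers, and 2 rose and 1 fell in control livers, with medians of 0.16 and 0.11. That is 22.7% higher and 9.09% lower in FBXL5ΔDC livers and 9.09% and 4.55% in control livers, not far from the shares of all genes. Map3k14, the kinase NIK that starts the alternative pathway, rose by 1.86 in FBXL5ΔDC and 1.51 in control livers (edgeR adjusted p = 0.00654 and 0.0413), the second being 0.68 and not called without treated control replicate 3 (edgeR adjusted p = 0.1249). Traf3, which keeps that kinase low, rose by 0.76 in FBXL5ΔDC and 0.98 in control livers (edgeR adjusted p = 0.0161 and 0.01265). Irak2, a kinase of the interleukin 1 and Toll-like receptor route, rose in FBXL5ΔDC livers (1.16, edgeR adjusted p = 0.01315), and Tradd, the TNF receptor adaptor, fell (−0.92, edgeR adjusted p = 0.0223). Tab2, an adaptor of the kinase TAK1, fell in control livers (−0.57, edgeR adjusted p = 0.0471). The other 3 subunit genes all rose in FBXL5ΔDC livers, Rel by 1.07, Nfkb1 by 0.83 and Rela by 0.80 (edgeR adjusted p = 0.00955, 0.00582 and 0.00535). In control livers Nfkb1 rose by 0.82 and Rela by 0.65 (edgeR adjusted p = 0.0163 and 0.0372), and Rela was at 0.39 and not called without treated control replicate 3 (edgeR adjusted p = 0.0803). The medians of these 3 were 0.83 in FBXL5ΔDC and 0.74 in control livers.

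Other brakes on the pathway moved in both directions. Of 19 further inhibitors and feedback genes tested, 6 rose and 1 fell in FBXL5ΔDC livers, 2 rose in control livers, and the list medians of 0.06 and 0.23 stood near those of all genes (0.02 and 0.03). The largest changes in FBXL5ΔDC livers were those of Irak3, an inactive kinase that blocks interleukin 1 receptor signalling (2.99, SE 0.50, edgeR adjusted p = 0.00112), and of Tnip2, a partner of the Tnfaip3 protein (2.35, SE 0.38, edgeR adjusted p = 9.05e-04). Irak3 averaged 1.59 CPM in these livers at 6 h and 0.1995 CPM at 0 h, close to the floor of 0.1755 CPM. Zfp36, which destabilises cytokine mRNAs, rose by 1.56 (SE 0.41, edgeR adjusted p = 0.01546). Nfkbib, which encodes IκBβ, averaged 39.4 ± 2.80 CPM in FBXL5ΔDC livers at 6 h, against 13.9 ± 2.19 CPM at 0 h (2.83-fold, edgeR adjusted p = 0.00122), a direction opposite to that of Nfkbia. In control livers the deubiquitinases Otud7b (0.61, edgeR adjusted p = 0.0346) and Otulin (0.54, edgeR adjusted p = 0.0489) rose, and neither was called without treated control replicate 3 (0.39 and 0.51, edgeR adjusted p = 0.0781 and 0.0784). Itch, a ubiquitin ligase that works with the Tnfaip3 protein, was lower in FBXL5ΔDC than in control livers at 6 h (−0.59, SE 0.16, edgeR adjusted p = 0.0439).

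**Figure D5:**
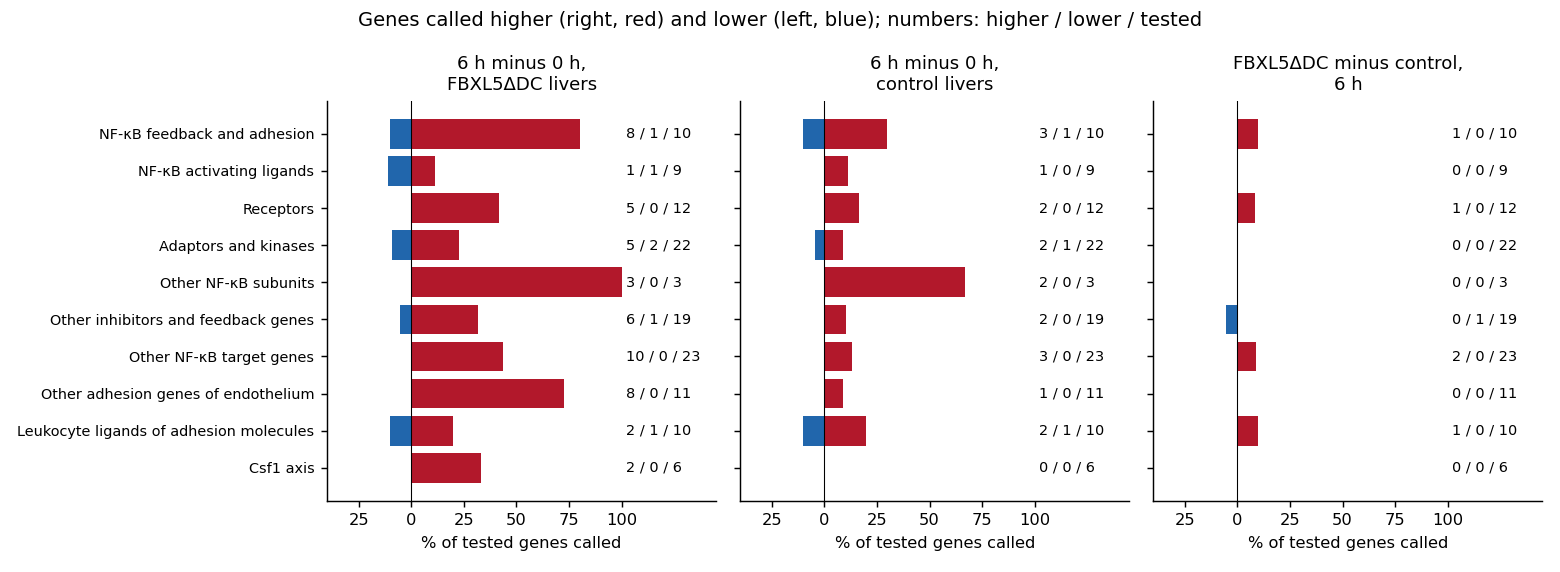
Share of tested genes of each pathway list called higher (right, red) or lower (left, blue) in 3 comparisons, with the counts higher, lower and tested beside each bar (edgeR adjusted p below 0.05). Other adhesion genes of endothelium have 8 of 11 called higher with APAP in FBXL5ΔDC livers and 1 of 11 in control livers.

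Other NF-κB target genes rose more often than they fell. Of 23 tested, 10 rose and 0 fell in FBXL5ΔDC livers, and 3 rose in control livers. The list median was 1.03 in FBXL5ΔDC livers, or 0.94 with genes near 0 counts set at their floor, and 0.96 in control livers. The chemokine genes Ccl7 and Ccl2 were at least 4.5-fold and 7.885-fold higher at 6 h than the 0 h floor in FBXL5ΔDC livers, and Cxcl1 rose by 6.98 on the log2 scale (SE 1.33, edgeR adjusted p = 0.00402). Cxcl10, a chemokine also driven by interferons, averaged 68.2 ± 10.8 CPM in FBXL5ΔDC and 9.70 ± 9.95 CPM in control livers at 6 h, a called difference of 2.82 (SE 0.60, edgeR adjusted p = 0.0253), which was 4.09 without treated control replicate 3 (edgeR adjusted p = 9.85e-07). Irf1, an interferon regulatory transcription factor, was at 24.65, 21.8 and 20.3 CPM in FBXL5ΔDC livers and at 13.5, 11.8 and 11.05 CPM in control livers at 6 h. That difference of 0.88 (SE 0.16, edgeR adjusted p = 0.0108) was called, and here treated control replicate 3 was the lowest of the control livers. In control livers the 3 called were Cxcl2 (at least 8.675-fold above the floor), Ier3, an early stress gene (2.31, edgeR adjusted p = 0.0222), and Cxcl10 (2.25, edgeR adjusted p = 0.0391). Treated control replicate 3 was the highest of the 3 for each of them, at 3.265 CPM of Cxcl2 (0.452 and 0.482 in replicates 1 and 2), 7.705 CPM of Ier3 (2.14 and 1.125) and 21.1 CPM of Cxcl10 (2.77 and 5.23). Without it, Cxcl10 rose by 0.98 (edgeR adjusted p = 0.0244), Cxcl2 stood 2.89-fold above the floor and Ier3 was at 1.15, and Cxcl2 and Ier3 were not called (edgeR adjusted p = 0.167 and 0.0620).

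On the endothelial side of adhesion, 8 of 11 further genes rose and 0 fell with APAP in FBXL5ΔDC livers, and 1 rose in control livers, with medians of 1.49 and 0.75. Pecam1 and Cdh5 are also in the endothelial marker list, whose sums are given above. Thbd, the thrombin receptor thrombomodulin, was at 61.8, 60.6 and 68.55 CPM in FBXL5ΔDC livers and at 5.045, 3.004 and 66.0 CPM in control livers at 6 h. Treated control replicate 3 lay among the treated FBXL5ΔDC livers for Thbd, and replicates 1 and 2 near the untreated livers. The rise of Thbd in FBXL5ΔDC livers was 4.46 (SE 1.08, edgeR adjusted p = 0.0126). Selp, which encodes P-selectin, rose by 3.27 (SE 0.69, edgeR adjusted p = 0.00409), the junction gene Esam by 2.21 (SE 0.42, edgeR adjusted p = 0.00225) and Pecam1 by 1.61 (SE 0.28, edgeR adjusted p = 0.00131). The gene called in control livers was F11r, a junctional adhesion molecule (0.49, SE 0.13, edgeR adjusted p = 0.0341), which was 0.39 and not called without treated control replicate 3 (edgeR adjusted p = 0.0730). P-selectin is also stored in platelets, and Selp was at 9.01, 9.925 and 7.67 CPM in FBXL5ΔDC and 0.839, 0.828 and 6.46 CPM in control livers at 6 h, against 0.823 to 1.07 CPM and 0.6415 to 1.03 CPM at 0 h. Platelet markers summed to 7.26 to 9.61 CPM in FBXL5ΔDC livers and to 2.28, 2.99 and 8.67 CPM in control livers at 6 h, against 1.71 to 2.79 CPM and 2.73 to 3.59 CPM at 0 h. With APAP 2 of 4 of them rose in FBXL5ΔDC livers, Pf4 and Itga2b, and 1 of 4 in control livers, Gp9, which was at 0 in all untreated livers, and the part of platelets was not tested.

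Of 10 genes listed because their products on leukocytes can bind these adhesion molecules, 2 rose and 1 fell in each genotype, with medians of 0.77 in FBXL5ΔDC and 0.84 in control livers. Which cells of the whole liver held these transcripts, those of Itgb1 and Itga9 included, was not tested. Itga4, the integrin chain that binds VCAM-1, fell in both, by 1.01 in FBXL5ΔDC and 1.17 in control livers on the log2 scale (edgeR adjusted p = 0.0312 and 0.0375). It averaged 2.545 ± 0.708 CPM in FBXL5ΔDC and 2.34 ± 0.677 CPM in control livers at 6 h, against 5.14 ± 1.70 and 5.29 ± 0.465 CPM at 0 h. Itgb2, the chain shared by the integrins that bind ICAM-1, rose by 1.48 in FBXL5ΔDC and 0.99 in control livers (edgeR adjusted p = 0.00277 and 0.0496). Without treated control replicate 3 neither Itga4 (−0.97) nor Itgb2 (0.89) was called in control livers (edgeR adjusted p = 0.0878 and 0.101). Itgal, one of its partners, rose in control livers (0.90, edgeR adjusted p = 0.0364). Itga9, another integrin chain that can bind VCAM-1, rose in FBXL5ΔDC livers (1.51, edgeR adjusted p = 0.00105) and was higher there than in control livers at 6 h (0.92, edgeR adjusted p = 0.0480). Neutrophil markers moved beside these, with 4 of 6 tested rising in FBXL5ΔDC and 1 of 6 in control livers, and sums of 3.40 to 10.2 CPM and 2.66 to 3.71 CPM at 6 h, against 0.730 to 1.87 CPM and 0.9535 to 1.53 CPM at 0 h. Camp and Ngp were at 0 in all treated FBXL5ΔDC livers and Ly6g in all treated control livers, and the part of neutrophils was not tested.

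Around Csf1, 2 of 6 genes rose in FBXL5ΔDC livers and 0 of 6 were called in control livers, by edgeR, with medians of 0.87 and 0.53. These were Csf2rb, the shared chain of the GM-CSF receptor (1.45, SE 0.38, edgeR adjusted p = 0.0118), and Spi1, the myeloid transcription factor PU.1 (0.88, SE 0.28, edgeR adjusted p = 0.0293). Kupffer cell markers summed to 192 to 328 CPM in FBXL5ΔDC and 163 to 202 CPM in control livers at 6 h, against 149 to 198 CPM and 124 to 157 CPM at 0 h, with 3 of 9 and 1 of 9 called higher with APAP. All 9 of these markers were detected in each group, and their part in the values of Csf1 was not tested.

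Over the 115 genes tested in these pathway lists together, 4 were called higher and 1 lower in FBXL5ΔDC than in control livers at 6 h, all named above, with 29 (25.2%) at an unadjusted p below 0.05, as were 22.7% of all genes. By edgeR, 0 of 114 were called between genotypes at 0 h and 0 of 114 for the interaction, where 3 (2.63%) and 17 (14.9%) had an unadjusted p below 0.05, against 2.64% and 14.5% of all genes. Pooled over the lists, these shares lay near those of all genes. The lists differed at 6 h, where 7 of 11 other adhesion genes of endothelium and 0 of 9 ligand genes had an unadjusted edgeR p below 0.05. The median log2 difference of these adhesion genes at 6 h was 0.93, against −0.01 over all genes, and 0 were called. Their median interaction was 0.95, against −0.02 over all genes. Of the calls with APAP for pathway genes named here, 19 of 30 in FBXL5ΔDC livers and 1 of 17 in control livers, that of Tnfrsf12a, were made whichever library was left out. The 11 in FBXL5ΔDC livers lost without at least 1 library were Irak2, Tradd, Traf3, Csf2rb, Spi1, Itga4, Il18, Il33, Thbd, Zfp36 and Tlr3, and treated control replicate 3 was not among the libraries that decided them. In control livers 10 of the 17 were lost without treated control replicate 3. Between genotypes at 6 h, Irf1 was the 1 gene of 5 called whichever library was left out. The list counts also moved with 1 library left out. Interaction calls ranged from 0 to 7 for other target genes and 0 to 6 for other adhesion genes, and stayed at 0 for ligands and subunits. Over all genes they reached 1103 higher and 1430 lower. Genotype calls at 6 h ranged from 0 to 8 for adaptors and kinases and 0 to 7 for other adhesion genes. Over all genes these reached 1873 higher and 2376 lower. With only the treated livers fitted, edgeR called 0 genes higher and 6 lower over all genes. Irf1, Cxcl10, Tnfrsf1b and Itga9 were thus not called higher in that fit.

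The genes of the set were not each other's closest matches across the 12 livers. Likeness was measured as the root mean square difference of log2 CPM centred on each gene's mean, over 17584 other genes. The closest pair within the set was Relb and Icam1, at 0.31, where Icam1 ranked 163 among the neighbours of Relb. The highest rank within the set was that of Bcl3 among the neighbours of Vcam1, 15 (0.40), where Tnfrsf21, a death receptor gene, came first (0.28). For the other genes the nearest were Bnip3 for Nfkbia (0.12), Gm49037 for Nfkbiz (0.24), Hecw2 for Tnfaip3 (0.20), Clic4 for Bcl3 (0.18), Lyar for Relb (0.15), Psmb10 for Nfkb2 (0.15), Atf6 for Icam1 (0.13), Grrp1 for Sele (0.61) and Rrp12 for Csf1 (0.19). All these values share the same 12 libraries and are a description.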

How the data were processed

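Per the labels' protocols, ISOGEN was used to extract RNA from the 12 whole livers. The submitters' processing notes name Trim Galore 0.6.6, HISAT2 2.2.1 and the build mm10. The counting program, its strand setting and its annotation are not given in the sources used here. The deposited values were taken as estimated counts per gene, without normalisation by the authors. They were already whole numbers, so nothing was rounded, but 27.5% of values from 1 to 40 were multiples of 4, against 25% for an even spread, so how many fragments stand behind a count is unknown. A floor of 12 counts per library was therefore used, and floors cover counting error only. The plan had assumed raw counts, and the same test was kept.

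After filterByExpr, 17585 genes were kept, all 10 of the set among them. With TMM scaling (factors 0.855 to 1.14), a robust quasi-likelihood model was fitted in edgeR 4.0.16 (R 4.3.3), with a coefficient for each group and 8 residual degrees of freedom. Comparisons were 6 h minus 0 h in each genotype, FBXL5ΔDC minus control at each time, and the difference between the APAP responses (interaction). Calls are at a Benjamini-Hochberg adjusted p below 0.05 over all genes of a comparison. The SE is the size of the log2 change divided by the square root of the F statistic. The fit was tested on simulated data. Alternatives were DESeq2 1.42.0, other scalings, no filter, the replicate block, only the groups compared, and leaving out each library.

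No pair of libraries was a copy, with a lowest chi-square per degree of freedom of 23.9. Identifiers matched GENCODE vM21 (GRCm38) for 98.1% of genes, which gave positions, exon lengths and overlaps. Promoter windows were from RefSeq. The 10 genes, the pathway lists and the marker lists were chosen with earlier results of these data known. Beyond the 10 genes, the text names from each pathway list up to 4 called genes with the largest log2 change per comparison, and for each of the 10 the gene with the most similar pattern. The endothelial markers named at 6 h, and Irf1 and Thbd as genes given library by library, were picked after their values were seen.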

Additional observations from a re-analysis of the deposited data

How the results depend on the processing

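The number of the 10 genes called for APAP in FBXL5ΔDC livers stayed at 9 under all other scalings, filters and tools, and at 8 to 9 when 1 library was left out. For APAP in control livers it was 4, and 1 when only the 2 compared groups were fitted, 6 in DESeq2, and 1 to 4 with 1 library left out. It was 1 without untreated control replicate 2 or 3 and 2 without untreated FBXL5ΔDC replicate 3. Between genotypes at 6 h it was 1, and 0 without the filter (Vcam1 adjusted p = 0.0593), 0 with only the treated groups, 3 in DESeq2 (Nfkbiz, Bcl3 and Vcam1), and 0 to 4 with 1 library left out, 4 without treated control replicate 3. Between genotypes at 0 h it was 0 under all of these. The interaction had 0, with 1 in DESeq2 and 0 to 3 with 1 library left out. Over all genes, DESeq2 called 1721 higher and 1222 lower for APAP in control livers, 753 and 1500 between genotypes at 6 h, and 228 and 490 for the interaction (edgeR 1118 and 739, 238 and 793, 6 and 45). With only the compared groups, edgeR called 235 and 167 for APAP in control livers, 0 and 6 between genotypes at 6 h, and 3 and 0 at 0 h. For the interaction, upper quartile scaling gave 2 and 18. Without treated control replicate 3, edgeR called 1873 higher and 2376 lower between genotypes at 6 h and 1103 and 1430 for the interaction.

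Signs turned only for values near 0. The Nfkbia interaction was 0.01 under upper quartile scaling. With 1 library left out, the ranges were −0.08 to 0.22 and −0.08 to 0.38 for Nfkb2 with APAP in FBXL5ΔDC and control livers, −0.19 to 0.03 for Nfkbia between genotypes at 6 h, and −0.16 to 0.06 (Nfkbia) and −0.33 to 0.14 (Nfkb2) for the interaction. At 0 h they were −0.10 to 0.07 for Nfkbia, −0.39 to 0.16 for Nfkbiz, −0.09 to 0.04 for Bcl3, −0.22 to 0.16 for Icam1 and −0.47 to 0.07 for Vcam1. The cause was not tested.

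The replicate numbers did not pair the livers. Over 18 same-numbered pairs the correlation of deviations from the group means was −0.06 to 0.04. With the replicate block, 9 genes were called for APAP in FBXL5ΔDC livers, 3 in control livers (Bcl3, Csf1 and Vcam1, the last with adjusted p = 0.0308, against 0.0667 for Nfkbiz and 0.0523 for Nfkbia), 1 between genotypes at 6 h, 0 at 0 h and 0 for the interaction, where it called 4 higher and 24 lower over all genes.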

Other observations

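Treated control replicate 3 had the highest level of the 3 treated control livers for 8 of the 10 NF-κB feedback and adhesion genes, the lowest for Nfkb2 (3.58 CPM, against 6.53 and 7.42 CPM in replicates 1 and 2) and the middle one for Csf1. Its level fell inside the range of the treated FBXL5ΔDC livers for 1 of the 10, Icam1 (17.3 CPM, in a range of 15.05 to 21.8 CPM).

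Stellate cell markers, which mark the pericytes of the sinusoid, summed to 192 to 251 CPM in FBXL5ΔDC and 114 to 174 CPM in control livers at 6 h, against 73.0 to 119.6 CPM and 90.8 to 149 CPM at 0 h, and with APAP 4 of 9 rose in FBXL5ΔDC and 1 of 9 in control livers. Cholangiocyte markers summed to 45.2 to 212 CPM in FBXL5ΔDC and 18.04 to 47.03 CPM in control livers at 6 h, against 5.055 to 8.49 CPM and 6.12 to 6.73 CPM at 0 h, and 4 of 5 rose in FBXL5ΔDC and 1 of 5 in control livers. Monocyte markers summed to 39.6 to 57.4 CPM in FBXL5ΔDC and 35.9 to 54.5 CPM in control livers at 6 h, with 2 of 8 and 1 of 8 rising with APAP. Dendritic cell markers summed to 17.7 to 23.6 CPM in FBXL5ΔDC and 9.005 to 22.5 CPM in control livers at 6 h, and edgeR called none of the 10 in any comparison. The part of these cell types in the levels of the 10 genes was not tested.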
